A study of Mus musculus with 10 samples.

Results

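The clustered protocadherins are cell-surface proteins of the cadherin family, encoded by tandem genes in an alpha, a beta and a gamma cluster on mouse chromosome 18. They were chosen here by gene name among the protein-coding rows of the deposited table, with no measured value used. The names matched 24 of 35275 rows: 22 rows of the beta cluster and only 1 row each for the alpha and gamma clusters. The tissue was motor cortex, taken at postnatal day 22 from C57BL/6 mice, with 5 biological repeats per genotype. The groups were wild-type mice (WT) and mice with a conditional knockout of membralin, encoded by Tmem259, in astrocytes (KO). Which Cre driver was used, and whether the WT mice carried floxed alleles, is not given in these sources. Libraries held between 22793058 and 28827871 fragments. Values are fragments scaled by gene length and by the fragments of the library (FPKM, per kilobase).

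Each neuron makes its own combination of these proteins, because each protein has its own promoter and few are active per cell. The proteins bind copies of themselves on the facing membrane, which lets branches of a neuron tell their own kind from others and keeps them apart. In the alpha and gamma clusters, each variable exon carries the extracellular part and is spliced to constant exons shared by the cluster. The beta genes lack constant exons, and each is a unit of its own. Gamma protocadherins are made by astrocytes as well as by neurons.

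The alpha and gamma rows each pooled a cluster, so the members of these clusters could not be told apart. The alpha row (named Pcdha10, ENSMUSG00000007440) ran over chromosome 18 from 36930285 to 37187657 on the plus strand of mm10. That span of 257373 bases overlapped all 14 alpha genes of GENCODE release M21 (Pcdha1 starts slightly before it), yet the row's gene length was 5422 bases. The gamma row (named Pcdhga12, ENSMUSG00000023036, with a description naming a C-type member) ran from 37674335 to 37841873, with a length of 5080 bases. It held 20 of the 22 gamma genes of release M21, and Pcdhga1 and Pcdhga2 started upstream of it. Release M21 gives the same identifiers to a single member each, with longest transcripts of 5359 and 5024 bases. The lengths used for FPKM were thus close to those of single transcripts. The C-type members Pcdhac1, Pcdhac2, Pcdhgc3, Pcdhgc4 and Pcdhgc5, which most neurons can share, therefore had no value of their own. Which variable exons were counted in these rows is not given in these sources.

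The 22 beta rows, Pcdhb1 to Pcdhb22, lay between 37264998 and 37521419, and each had a length equal to its genomic span. The lengths were close to those of the longest M21 transcript except for Pcdhb6, Pcdhb8, Pcdhb11, Pcdhb14, Pcdhb17 and Pcdhb22, which are longer in M21. Pcdhb14 had 3438 bases in the table and 8695 bases in release M21, so its level per length depends on the gene model. The beta genes are close paralogs. Among the 21 beta genes above the filter described with the tests, between 1.504% and 11.99% of the 50-base stretches of a gene's transcript also occurred in another clustered protocadherin. The highest shares were 11.99% in Pcdhb12 and 11.3% in Pcdhb21, and the lowest was 1.504% in Pcdhb14. How fragments that match several genes were assigned is not given in these sources.

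Several facts of the whole series touch these genes. Tmem259 measured between 23.8 and 32.4 FPKM in WT and between 16.9 and 34.4 FPKM in KO. The highest of the 10 values was that of the library labelled KO3, so results are also given without it. Reactive astrocyte markers summed to between 96.2 and 135 FPKM in WT and between 127 and 804 FPKM in KO, where 5 of 5 tested genes rose. Of these markers, Gfap measured between 79.4 and 114 FPKM in WT. It measured 106 FPKM in the library labelled KO3 and between 426 and 673 FPKM in the other KO libraries. Excitatory neuron markers of cortex were high in every library, with sums between 849 and 968 FPKM in WT and between 866 and 1081 FPKM in KO. GABAergic markers summed to between 256 and 338 FPKM in WT and between 364 and 538 FPKM in KO. Markers of the olfactory bulb (Omp, Doc2g, Cdhr1, Tbx21, Eomes and Sp8) summed to between 4.02 and 25.7 FPKM in WT and between 8.57 and 54.4 FPKM in KO. In bulk tissue fewer cells of a type and less RNA per cell cannot be told apart.

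In this cortex the gamma cluster was the most abundant of the 3. The gamma row took between 64.6% and 70.8% of the summed FPKM of the 3 clusters in a library, the beta rows between 15.0% and 19.9%, and the alpha row between 12.7% and 17.2%. Fragments per library were between 20608 and 26777 for the gamma row, between 4524 and 6851 for the alpha row and between 3207 and 5311 for all beta rows. Every library had the gamma row highest. Alpha and beta cannot be ranked: by FPKM the beta sum exceeded the alpha row in every library but WT1, while by fragments the alpha row exceeded the beta rows in all 10. The FPKM shares rest on the single-transcript lengths given to the pooled alpha and gamma rows.

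**Figure D1:**
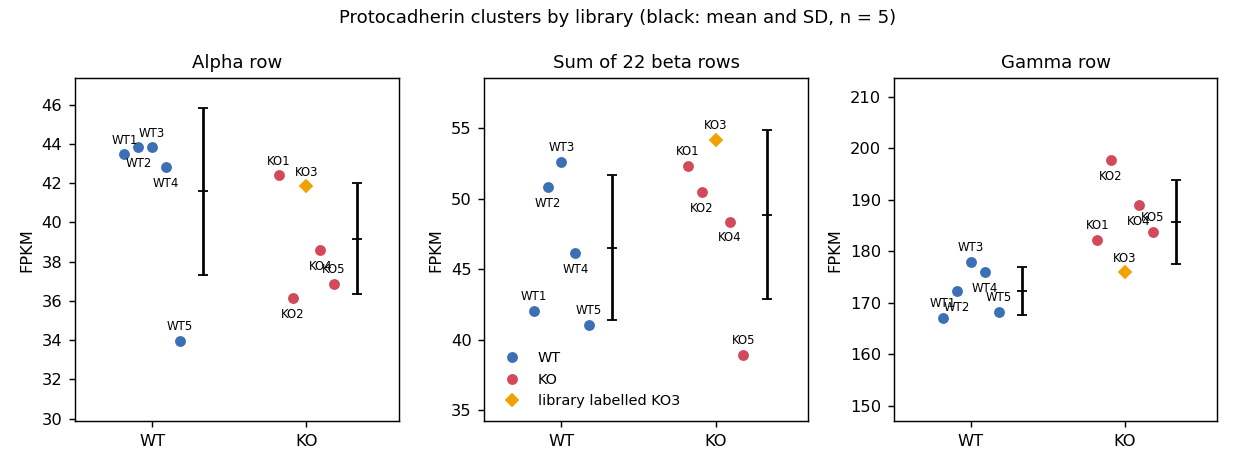
FPKM of the alpha row, of the sum of the 22 beta rows and of the gamma row, with 1 point per library, the library labelled KO3 as a diamond, and the mean and SD of each group in black. The vertical axes do not start at 0. WT5 lies below the other WT libraries in the alpha panel, KO5 has the lowest beta sum (38.9 FPKM), and KO3 is the KO library that overlaps WT in the gamma panel.

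The alpha row measured 43.5, 43.8, 43.8, 42.8 and 34.0 FPKM in WT1 to WT5. In KO1 to KO5 it measured 42.4, 36.2, 41.8, 38.6 and 36.9 FPKM. All 5 KO libraries lay below WT1 to WT4 and above WT5, so the groups overlapped. WT averaged 41.6 ± 4.28 and KO 39.2 ± 2.84 FPKM (SD, n = 5 per genotype). KO and WT did not differ by the test over all genes (log2 fold change -0.08, 95% interval -0.25 to 0.09, limma adjusted p = 0.493). Without WT5 the log2 ratio of the means was -0.15, against -0.09 with it. With median-of-ratios scaling of the libraries the log2 fold change of the alpha row was -0.18 (limma adjusted p = 0.146).

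The gamma row measured 167, 172, 178, 176 and 168 FPKM in WT1 to WT5. In KO1 to KO5 it measured 182, 198, 176, 189 and 184 FPKM. KO1, KO2, KO4 and KO5 lay above every WT library, and the library labelled KO3 lay among WT. WT averaged 172 ± 4.72 and KO 186 ± 8.19 FPKM (SD, n = 5 per genotype), a difference of 7.75%. It did not pass the test over all genes (log2 fold change 0.11, SE 0.05, 95% interval -0.0033 to 0.22, limma adjusted p = 0.163). The exact two-sided permutation p was 0.0238, unadjusted, where 0.00794 is the smallest that 252 assignments can give and 30.1% of all tested genes had such a p under 0.05. KO averaged 188 ± 7.04 FPKM (SD, n = 4) once the library labelled KO3 was left out, which gave 0.13 on the log2 scale (limma adjusted p = 0.0906). The groups then did not overlap for the gamma row, as for 17.8% of all tested genes in the same direction. With median-of-ratios scaling of the libraries the log2 fold change of the gamma row was 0.01.

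The gamma row thus had a positive and the alpha row a negative point estimate, neither of which passed. The ratio of gamma to alpha FPKM was 3.84, 3.93, 4.06, 4.11 and 4.95 in WT1 to WT5, and 4.296, 5.47, 4.20, 4.90 and 4.98 in KO1 to KO5. WT5 lay within the KO range, and the other WT libraries lay below every KO library. The difference between the rows' changes was not tested.

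The beta genes were expressed at low and similar levels. Means over the 10 libraries lay between 1 and 4 FPKM for 19 of the 22 genes, with a median of 1.99 FPKM. Pcdhb17 was the highest at 5.05 FPKM, 5.58-fold the level of Pcdhb4 (0.905 FPKM), the lowest gene above the filter. Pcdhb17 was the highest beta gene in 9 of 10 libraries, and Pcdhb20 was so in WT2. Pcdhb17 measured 4.53, 4.48, 5.48, 4.55 and 5.18 FPKM in WT1 to WT5, and 5.69, 5.004, 6.59, 5.12 and 3.88 FPKM in KO1 to KO5. Its lowest and highest values were both in KO libraries, KO5 and the library labelled KO3.

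Pcdhb1, the gene at the upstream end of the cluster, was close to undetected. It had 0 fragments in WT5 and in the library labelled KO3 and at most 12 fragments in any library. It averaged 0.0582 ± 0.0678 (WT) and 0.0357 ± 0.0352 FPKM (KO; SD, n = 5 per genotype). It was below the filter and was not tested. Pcdhb1 was the lowest beta gene in all 10 libraries.

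Below Pcdhb17, mean levels over the 10 libraries were 3.97 FPKM for Pcdhb20 and 3.63 FPKM for Pcdhb22. Pcdhb12 and Pcdhb9 followed at 2.92 FPKM each, Pcdhb16 at 2.68 FPKM and Pcdhb7 at 2.65 FPKM. Between 2.16 and 1.93 FPKM lay, in falling order, Pcdhb14, Pcdhb10, Pcdhb19, Pcdhb18 and Pcdhb15. Between 1.79 and 1.59 FPKM lay Pcdhb5, Pcdhb2, Pcdhb13, Pcdhb3, Pcdhb21 and Pcdhb8. Pcdhb6 (1.44 FPKM) and Pcdhb11 (1.31 FPKM) stood just above Pcdhb4. Of the 21 neighbouring pairs in this order, 20 had ranges that overlapped over the 10 libraries, and the exception was Pcdhb4 above Pcdhb1. Pcdhb12 exceeded Pcdhb9 in 4 of 10 libraries and Pcdhb10 exceeded Pcdhb19 in 6, so such neighbours did not differ beyond their spread.

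The order as a whole was nevertheless shared between libraries. Spearman's rho between the 22 levels of a library and their means in the other 9 libraries was between 0.86 and 0.96. It was lowest in the library labelled KO3. Genes nearer the downstream end were higher: the median was 1.66 FPKM for the 10 genes Pcdhb2 to Pcdhb11 and 2.16 FPKM for the 11 genes Pcdhb12 to Pcdhb22. Across these 21 genes Spearman's rho between position and mean level was 0.50. It was -0.08 between gene length and level, and 0.06 between the share of shared 50-base stretches and level. These values are descriptions across genes of the same libraries, and genes are not independent replicates.

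**Figure D2:**
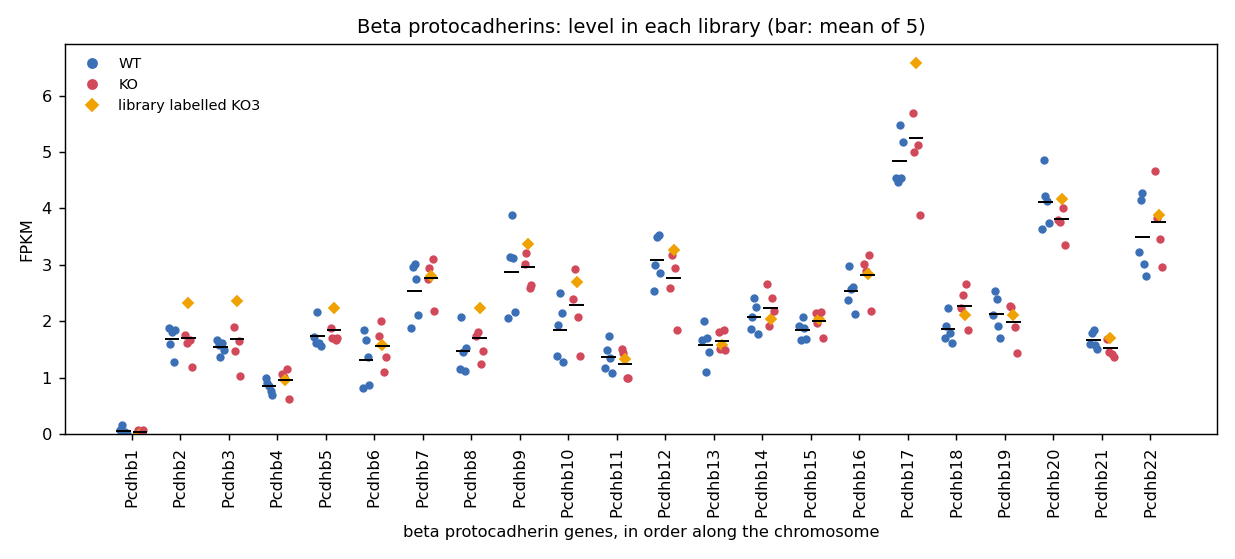
FPKM of the 22 beta genes, in order along the chromosome, with 1 point per library, the library labelled KO3 as a diamond, and a bar at the mean of 5. Pcdhb17 is highest and Pcdhb1 is near 0, and the WT and KO points overlap for every gene.

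The spread between libraries was set beside that of counting. A beta gene above the filter had between 53 and 522 fragments in a library, with a median of 183. Counting alone gives a coefficient of variation (CV, the SD as a percentage of the mean) between 4.88% and 10.8%, with a median of 7.27%. The CV between WT libraries was between 7.80% and 34.6%, with a median of 14.2%, and that between KO libraries between 8.13% and 29.6%, with a median of 16.5%. It was above the counting value for 20 of 21 genes in WT and for 21 of 21 in KO. The widest WT spread was that of Pcdhb6, which measured 0.825, 1.84, 1.66, 1.36 and 0.880 FPKM in WT1 to WT5. The narrowest was that of Pcdhb3 at 7.80%, while the same gene had the widest spread in KO, from 1.02 FPKM in KO5 to 2.36 FPKM in the library labelled KO3. The CV was higher in KO for 12 of 21 genes.

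**Figure D3:**
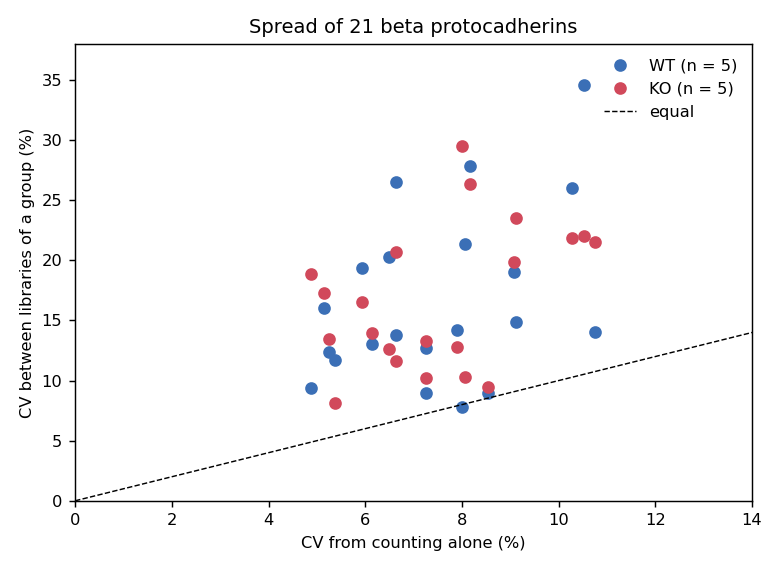
Coefficient of variation of 21 beta genes between the 5 libraries of a group, in percent, against that expected from counting alone, with blue points for WT and red points for KO. Nearly all points lie above the dashed line of equality, by several-fold for genes such as Pcdhb3 in KO (29.6% against 7.999%).

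No clustered protocadherin passed the comparison of KO with WT. The test was limma on log2(FPKM + 1) over the 14497 genes that averaged 0.5 FPKM or more. Calls needed p under 0.05 after Benjamini-Hochberg adjustment. Of the 24 rows 23 passed that filter. The count called was 0 of 23, where 13.3% of all tested genes were called, 9.77% higher and 3.51% lower. The groups did not overlap for 0 of 23, against 7.55% of all tested genes. At an unadjusted p under 0.05 the count was 1, Pcdhb18, where 32.8% of all tested genes had such a p. On recovered fragments with limma voom it was also 0 after adjustment, where 14.7% of all genes were called (10.7% higher, 3.98% lower), and 1 before it, where 33.4% were. Without the library labelled KO3 limma called 0 of 23 rows, where 26.0% of all genes were called (19.6% higher, 6.36% lower). At an unadjusted p under 0.05 the count was then 2, Pcdhb18 and the gamma row, where 39.4% of all genes had such a p.

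The members' differences were small as well as uncertain. Point estimates were positive for 17 and negative for 6 of the 23 rows, and 69.5% of all tested genes had a positive estimate. The median log2 fold change was 0.08 over the 23 rows and 0.08 over all tested genes. With median-of-ratios scaling 12 were positive and 11 negative, with a median of 0.01. Estimates ranged from -0.13 in Pcdhb12 to 0.21 in Pcdhb10. For 22 of the 23 rows the whole 95% interval lay within 0.5 of 0 on the log2(FPKM + 1) scale. The exception was Pcdhb10, whose interval reached 0.53. This scale understates the change of genes near 1 FPKM: with a pseudocount of 0.1 in place of 1 the largest estimate was 0.29, also in Pcdhb10.

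**Figure D4:**
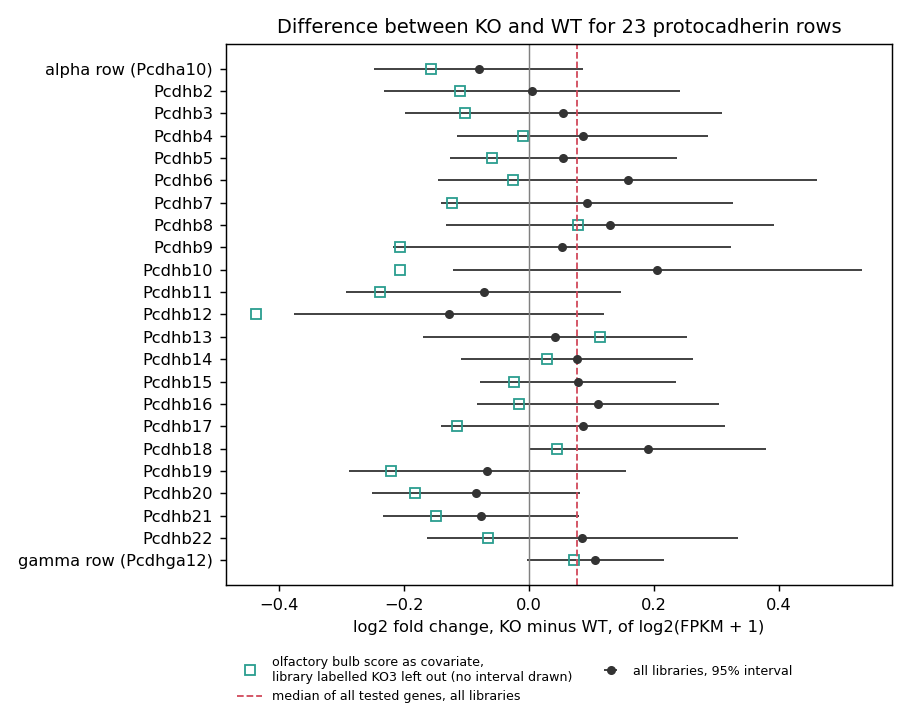
Log2 fold change (KO minus WT) of the 23 rows above the filter, with its 95% interval, and, as squares with no interval drawn, the estimate with the bulb marker score as covariate and the library labelled KO3 left out. The dashed line is the median of all tested genes, 0.08. Intervals cross 0 for all rows but Pcdhb18, and 18 of the 23 squares lie below 0.

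Pcdhb18 had the lowest p of the 23 rows and is named for it after its values were seen. It measured 1.71, 1.92, 2.238, 1.80 and 1.62 FPKM in WT1 to WT5, and 2.239, 2.46, 2.115, 2.66 and 1.84 FPKM in KO1 to KO5. KO1, KO2 and KO4 lay above all WT libraries, KO1 by very little, and the other KO libraries lay within the WT range. It differed by 0.19 on the log2 scale (95% interval 0.0023 to 0.38, unadjusted p = 0.0477, limma adjusted p = 0.148). Without the library labelled KO3 it was 0.21 (limma adjusted p = 0.123).

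Pcdhb10 had the largest positive estimate. It measured 1.39, 1.94, 2.50, 2.14 and 1.28 FPKM in WT1 to WT5, and 2.39, 2.93, 2.69, 2.07 and 1.38 FPKM in KO1 to KO5. WT1, WT5 and KO5 were the lowest of the 10, and the groups overlapped. The means were 1.85 ± 0.516 and 2.29 ± 0.604 FPKM (SD, n = 5 each; log2 fold change 0.21, SE 0.15, limma adjusted p = 0.364).

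Pcdhb12 had the largest negative estimate. It measured 2.54, 3.01, 3.499, 3.53 and 2.86 FPKM in WT1 to WT5, and 2.58, 3.18, 3.26, 2.94 and 1.85 FPKM in KO1 to KO5. KO5 was the lowest of the 10, and the other KO libraries lay within the WT range. The means were 3.09 ± 0.426 and 2.76 ± 0.573 FPKM (SD, n = 5 each; log2 fold change -0.13, SE 0.11, limma adjusted p = 0.463).

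The beta genes varied together across libraries, and both genotypes had libraries with low and with high values. Their sum was 42.0, 50.8, 52.6, 46.1 and 41.1 FPKM in WT1 to WT5, and 52.4, 50.5, 54.2, 48.4 and 38.9 FPKM in KO1 to KO5. WT1, WT5 and KO5 were the lowest of the 10. Of the 21 beta genes above the filter, 20 were below their own mean in KO5, 19 in WT5 and 15 in WT1, against 2 each in KO1 and the library labelled KO3. KO5 held the lowest value of the 10 for 9 genes and WT5 for 6. The group means of the sum were 46.5 ± 5.13 and 48.9 ± 5.98 FPKM (SD, n = 5 each), and 47.5 ± 5.98 FPKM (SD, n = 4) in KO without the library labelled KO3.

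Markers of the olfactory bulb moved with this pattern. Omp ranged from 2.95 to 10.5 FPKM in 6 libraries, WT3, WT4 and KO1 to KO4. In the other 4, KO5, WT1, WT2 and WT5, it ranged from 0.228 to 0.406 FPKM. The beta sum was between 46.1 and 54.2 FPKM in the former, and 42.0, 50.8, 41.1 and 38.9 FPKM in the latter. Pcdhb10 was between 2.07 and 2.93 FPKM in the 6 libraries and between 1.28 and 1.94 FPKM in the 4. Pcdhb12 was between 2.58 and 3.53 FPKM in the 6 and between 1.85 and 3.01 FPKM in the 4. Pcdhb10 and Pcdhb12 were picked for this after their values were seen. The share of all tested genes that separate the same 6 and 4 libraries is not given here, so these ranges have no background. Since 4 of 5 KO but 2 of 5 WT libraries were among the 6, marker level and genotype were partly confounded.

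In a fit with genotype and the mean log2(FPKM + 1) of the 6 bulb markers, the slope on that score was positive for 22 of the 23 rows, and for 56.9% of all tested genes. The exception was Pcdhb13. The median slope was 0.09 per unit of score over the 23 rows and 0.01 over all tested genes. An unadjusted limma p under 0.05 was found for 5 rows, Pcdhb7, Pcdhb9, Pcdhb10, Pcdhb12 and Pcdhb18, where 8.23% of all tested genes had such a p and 5.24% had it with a positive slope. No row passed after adjustment over all genes, where 0.269% did (0.345% without the library labelled KO3, again with no row), and Pcdhb10 came nearest (slope 0.34, SE 0.06, limma adjusted p = 0.0685). This fit of the slope was chosen after the data were seen. The part of bulb tissue in the differences between libraries was not tested beyond it.

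**Figure D5:**
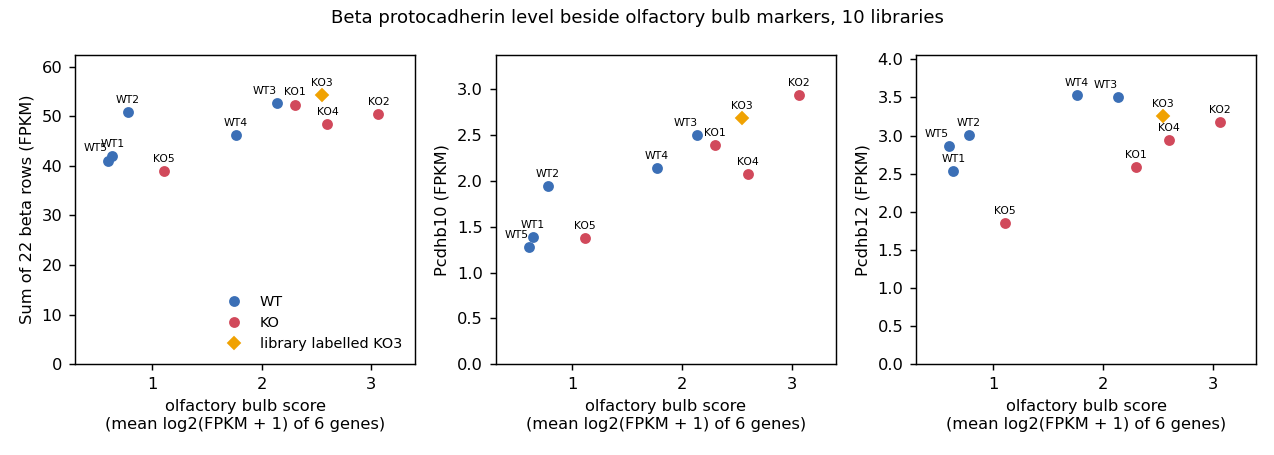
Sum of the 22 beta rows, Pcdhb10 and Pcdhb12, in FPKM, against the mean log2(FPKM + 1) of the 6 olfactory bulb markers, with 1 labelled point per library (WT blue, KO red, library labelled KO3 as a diamond). WT1, WT5 and KO5 have low scores and the lowest beta sums and Pcdhb10 values, and WT2 has a low score with a beta sum of 50.8 FPKM. In the Pcdhb12 panel WT5 (2.86 FPKM) lies above KO1 (2.58 FPKM).

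With this score as a covariate the members' estimates shifted downward. In the 10 libraries 18 of 23 rows then had a negative estimate, where 35.6% of all tested genes did, and the median was -0.06 against 0.06 over all tested genes. No member and no gene of the table was called in that limma fit, with 1 member at an unadjusted p under 0.05, where 21.7% of all genes had one. With the library labelled KO3 also left out, 18 of 23 were negative, where 34.5% of all tested genes were, and the median was -0.10. In that fit 0 of 23 rows were called higher, where 8.42% of all tested genes were, and 1 was called lower, where 3.94% were; 1 had an unadjusted p under 0.05, where 29.1% did. It was Pcdhb12 (log2 fold change -0.44, SE 0.0855, limma adjusted p = 0.0101). The share of members called lower is near that background. Without the covariate its log2 fold change without the library labelled KO3 was -0.18 (limma adjusted p = 0.288), and its adjusted p over all alternatives ran from 0.0101 to 0.847.

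The non-clustered delta protocadherins, single genes scattered over the genome, were measured beside the clusters. Of 10 tested, 1 rose and 1 fell, where 9.77% of all tested genes were called higher and 3.51% lower. The median log2 fold change was 0.07, against 0.08 over all tested genes. With 10 genes, these counts cannot be told from that background. Pcdh17, which acts in axon bundling and synapses, rose from 14.7 ± 1.81 to 18.3 ± 1.57 FPKM (SD, n = 5 each; log2 fold change 0.30, limma adjusted p = 0.0375). Pcdh9 fell from 29.8 ± 1.13 to 25.5 ± 2.15 FPKM (log2 fold change -0.22, limma adjusted p = 0.0361). Pcdh8, an activity-induced member, averaged 12.3 ± 0.77 (WT) and 19.7 ± 8.46 FPKM (KO) and did not pass (limma adjusted p = 0.0979). Without the library labelled KO3 it did (log2 fold change 0.68, limma adjusted p = 0.0282). The call of Pcdh17 was lost with the bulb score as a covariate and that library left out (limma adjusted p = 0.0592), and that of Pcdh9 was not (0.0074).

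Genes that act on the clustered promoters showed no call over the 10 libraries. CTCF and the cohesin ring bring a variable promoter together with its enhancers, and DNA methyltransferases, Smchd1 and Setdb1 silence promoters. Of 16 such genes 15 were tested, and 0 were called by limma or by limma voom, where 13.3% and 14.7% of all genes were. At an unadjusted limma p under 0.05 there were 3, where 32.8% of all tested genes had such a p. Among these were Rad21, a cohesin subunit (27.2 ± 0.433 and 29.8 ± 1.56 FPKM, limma adjusted p = 0.0879), and Wiz (adjusted p = 0.152). Without the library labelled KO3 Wiz was called lower (log2 fold change -0.17, limma adjusted p = 0.0492), the only call in this list. Of all tested genes 19.6% were called higher and 6.36% lower in that fit. Ctcf, named outside the rule for its role, averaged 16.7 ± 1.33 (WT) and 17.2 ± 1.02 FPKM (KO; SD, n = 5 per genotype; limma adjusted p = 0.652). Dnmt3b, which methylates these promoters early in development, was below the filter.

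Among 18 genes for partners and signalling of protocadherins, 1 rose and 1 fell, where 9.77% of all tested genes were called higher and 3.51% lower. The median log2 fold change was 0.06, against 0.08 over all tested genes. Cyfip2, a subunit of the WAVE complex that builds branched actin and binds protocadherin tails, fell from 191 ± 9.42 to 148 ± 19.5 FPKM (SD, n = 5 each; log2 fold change -0.38, limma adjusted p = 0.0227). Pdcd10 did not pass (log2 fold change 0.23, limma adjusted p = 0.0592). Without the library labelled KO3 it did (log2 fold change 0.26, limma adjusted p = 0.0263). In that fit 4 genes of this list were called higher and 1 lower, where 19.6% and 6.36% of all tested genes were. With the bulb score as a covariate and the library labelled KO3 left out, Cyfip2 still passed (limma adjusted p = 0.0101).

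Of 12 genes that flank the clusters or lie between them 10 were tested, and 1 rose and 1 fell. Of all tested genes 9.77% were called higher and 3.51% lower. Diaph1, an actin-nucleating formin directly downstream of the gamma cluster, fell from 16.8 ± 1.07 to 14.3 ± 0.68 FPKM (SD, n = 5 each; log2 fold change -0.22, limma adjusted p = 0.0273). Fchsd1 rose from 0.864 ± 0.112 to 1.24 ± 0.156 FPKM (limma adjusted p = 0.0459), and Hars did not pass (adjusted p = 0.0984). Without the library labelled KO3 Hars passed (log2 fold change 0.17, limma adjusted p = 0.0272). The list then had 3 genes called higher and 1 lower, where 19.6% and 6.36% of all tested genes were so called. With the bulb score as a covariate and the library labelled KO3 left out neither Diaph1 nor Fchsd1 passed (limma adjusted p = 0.117 and 0.096). All 6 calls in these lists were lost without WT1, without KO2 or without KO4, where 2 genes of the whole table passed.

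A noncoding gene on the minus strand within the gamma cluster, Gm26672 (37746559 to 37768242), was looked at after its values were seen, because no source says that strand was recorded, and reads of overlapping partners then cannot be told apart. It measured 3.28, 3.72, 3.70, 3.06 and 2.36 FPKM in WT1 to WT5, and 5.06, 4.999, 3.56, 4.24 and 3.89 FPKM in KO1 to KO5. KO1, KO2, KO4 and KO5 lay above every WT library, and the library labelled KO3 lay within WT, as for the gamma row. On the log2 scale it differed by 0.34 (limma adjusted p = 0.0567). Without that library it differed by 0.40 (limma adjusted p = 0.0208), where 19.6% of all tested genes were called higher. The groups then did not overlap, as for 17.8% of all tested genes in the same direction. With the bulb score as a covariate and that library left out it was 0.26 (limma adjusted p = 0.20). Over the 10 libraries limma voom gave 0.44 (adjusted p = 0.045), where 10.7% of all genes were called higher. Library weights gave 0.35 (limma adjusted p = 0.0184) and median-of-ratios scaling 0.26 (limma adjusted p = 0.112). The antisense genes Gm10544 and Gm10545, within the alpha cluster, were below the filter.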

How the data were processed

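Libraries of 10 mice were built with a NEBNext Ultra kit (labels' protocols). Of tools and builds, the submitters' processing notes list DESeq2 and mm10 without saying for what. The aligner, counter and annotation are not given in these sources. Per the file headers, the authors deposited FPKM for each gene and library, beside gene lengths. FPKM times length gave whole fragments, within 0.02, for 100% of values above 0. The lowest chi-square per gene over 45 pairs of libraries was 7.28, so no library was a copy of another.

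Groups and replicate numbers come from the sample titles. Genotypes were compared on log2(FPKM + 1) with limma 3.58.1 under R 4.3.3 (lmFit, then eBayes with its trend option), for genes that averaged 0.5 FPKM or more, two-sided. The step was tested on simulated counts. An exact permutation test over 252 assignments was run on every tested gene.

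The members and lists were chosen with earlier results of these data known. The text names Tmem259, called members, C-type members, the highest and lowest member and the largest rise and fall per cluster, and up to 3 members per list with the lowest p. Other members, Ctcf, Omp and Gm26672 were named with their values known. Some genes that the rule names are not reported here. Alternatives covered the pseudocount, filter, scaling, variance model, weights, recovered fragments, a block, a bulb marker covariate and each library left out. Shared 50-base stretches were counted in GENCODE M21 transcripts.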

Additional observations from a re-analysis of the deposited data

Results flagged for a closer look

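In 2 of the 78 sets of 5 libraries examined, a single library stood away from the rest, where chance gives about 1 in 20. WT5 lay below the other WT libraries for the alpha row, Pcdha10, at 33.97 FPKM against 42.8 to 43.8 FPKM. WT3 lay above the other WT libraries for Pcdhb5, at 2.161 FPKM against 1.56 to 1.73 FPKM.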

How the results depend on the processing

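No clustered protocadherin was called in any of the alternatives but the fit that had the bulb score as covariate and left out the library labelled KO3, which called 1 lower, Pcdhb12. The median log2 fold change of the members was -0.059 with that score as a covariate and -0.102 when that library was also left out, against 0.078, and between 0.04 and 0.11 when each library was left out. The number of genes called over the whole table, 1926, was 465 with no filter, 3557 with library weights, 1271 with the replicate number as a block, 0 with the score as a covariate (where 21.7% of genes had an unadjusted p under 0.05) and 0 by exact permutation tests (30.1%), and between 2 and 3763 when each library was left out. With the replicate number as a block 0 members were called. Same-numbered libraries deviated together with correlations between -0.06 and 0.14, and 2 of 5 WT libraries correlated best with their own number, so the numbers were not taken as pairs. Leaving out each library gave log2 ratios of KO to WT means between -0.15 and -0.06 for the alpha row, 0.03 and 0.14 for the beta sum, and 0.08 and 0.13 for the gamma row. The median 95% interval of the members had a half-width of 0.22 on the log2 scale, against 0.18 for all tested genes. Of the genes called, 1417 were higher and 509 lower in KO, against 608 and 945 with median-of-ratios scaling.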
